A study of Mus musculus with 6 samples.

Results

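Enzymes that make oxidizable phospholipids and ether lipids were examined in the mouse dendritic cell line DC2.4 and in its derivative labelled PD-L1 knockout. The genes were chosen by symbol from a table of read counts, and all 10 were found among its 31205 rows. They are Acsl4, Lpcat3, Por, Cyb5r1, Agps, Far1, Alox5, Alox5ap, Elovl5 and Fads1. The study sequenced total RNA of 3 libraries of DC2.4 with genotype Control and 3 with genotype PD-L1 knockout. Both groups share the parental line, and the labels name no drug, dose or time for either. The series title concerns ferroptosis of dendritic cells. The labels do not say whether the knockout line is a single clone or whether the libraries came from separate cultures, so a p-value here speaks for the spread among the sequenced libraries, and that spread may be technical.

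Ferroptosis is an iron-dependent cell death in which membrane phospholipids that carry polyunsaturated fatty acids are oxidized. ACSL4 activates such fatty acids as acyl-CoA and LPCAT3 places them into phospholipids, while FADS1 and ELOVL5 desaturate and elongate them. AGPS and FAR1 serve the peroxisomal route to ether phospholipids, which can also carry oxidizable chains. POR and CYB5R1, electron transfer enzymes of the endoplasmic reticulum, have been tied to lipid peroxidation, and the lipoxygenase ALOX5 works with its membrane partner ALOX5AP to start leukotriene synthesis in myeloid cells.

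Promoter sequence is shown for Agps, the gene that passed the test below, and for Cyb5r1 and Por, which came next by p. Each window runs from 250 bases before to 50 after the RefSeq start (GRCm38.p6, the assembly of mm10), 5′ to 3′ on the gene's strand. The positions are chr2:75831927-75832226 for Agps, chr5:135688895-135689194 for Por and chr1:134405531-134405830 for Cyb5r1, all on the plus strand. The Por window lies wholly inside the gene's GENCODE M21 span, which starts at 135670033. Most of the Cyb5r1 window lies inside that gene's span, which starts at 134405559. For Por and Cyb5r1 the windows therefore describe the RefSeq start and not the first annotated start. Capitals mark a GC box (GGGCGG) or a CCAAT box (CCAAT) on either strand.
Agps: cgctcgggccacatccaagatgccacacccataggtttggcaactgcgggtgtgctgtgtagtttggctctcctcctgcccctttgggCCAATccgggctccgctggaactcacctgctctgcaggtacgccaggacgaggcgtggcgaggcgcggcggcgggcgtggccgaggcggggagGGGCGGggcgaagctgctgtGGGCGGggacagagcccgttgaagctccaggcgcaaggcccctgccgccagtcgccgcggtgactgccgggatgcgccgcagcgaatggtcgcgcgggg
Por: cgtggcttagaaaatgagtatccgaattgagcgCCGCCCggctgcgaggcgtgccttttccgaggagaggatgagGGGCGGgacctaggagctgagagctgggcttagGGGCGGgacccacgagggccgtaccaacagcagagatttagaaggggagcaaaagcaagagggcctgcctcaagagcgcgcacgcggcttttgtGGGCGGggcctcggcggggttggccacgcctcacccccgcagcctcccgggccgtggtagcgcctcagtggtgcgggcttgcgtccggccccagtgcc
Cyb5r1: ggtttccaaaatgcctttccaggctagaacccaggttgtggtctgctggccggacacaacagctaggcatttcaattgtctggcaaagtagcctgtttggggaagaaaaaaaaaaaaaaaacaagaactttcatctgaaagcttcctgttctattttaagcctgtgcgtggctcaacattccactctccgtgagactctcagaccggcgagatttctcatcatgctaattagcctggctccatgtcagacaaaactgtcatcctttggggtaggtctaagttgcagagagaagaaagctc
The Agps window held 2 GC boxes, 1 CCAAT box and 32 CpG dinucleotides, and the Por window 4 GC boxes and 27 CpG. The Cyb5r1 window held 0 of either box and 5 CpG. Among 32544 RefSeq windows of the same length, 35.9% held a GC box and 37.4% a CCAAT box, and the median was 7 CpG. These letters describe the windows only, and binding was not measured here.

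Cd274, which encodes PD-L1, was counted 52, 99 and 171 times in control and 102, 81 and 163 times in the libraries labelled knockout (here and below, libraries are given in the order of replicates 1, 2 and 3). A count per gene does not read the edited sequence, so it does not check the labels, on which each direction below rests. Totals ran from 10918498 to 23250065 counts a library. Knockout library 1 stood apart on the second principal component of log2 CPM (37.95, against -10.9 and -15.6). CPM here means counts scaled to a common library size with TMM factors. Control library 2 stood apart in fibroblast transcripts, with 2235 counts of collagen Col1a1 and 1382 of fibronectin Fn1, where no remaining library passed 5 and 3. The 10 fibroblast markers summed to 217 CPM there and to at most 0.269 in any knockout library. Of 16 dendritic and myeloid markers 11 had enough counts to be tested, with 1 higher, 2 lower and 8 not called (median log2 difference 0.025, knockout minus control). The 16 summed to 1050 to 1108 CPM in control and 967 to 1010.3 in knockout. The dendritic factor Zbtb46, among the 2 lower, was at 7.598 CPM in control and 4.64 in knockout. The dendritic genes Flt3 and Batf3 had at most 1 and 4 counts in a library. Zbtb46, Flt3 and Batf3 do not stand for the whole list, in which 6 of the 11 tested genes had a positive log2 difference. Of 10 macrophage and monocyte markers 7 were tested, with 0 higher and 4 lower (median log2 difference -1.18, knockout minus control). The 4 lower were the lysozyme Lyz2 (-2.81), the Fc receptor Fcgr1 (-1.18), Ly6c2 and the scavenger receptor Cd163 (-2.70), while Adgre1, Cd68 and Cd14 were not called. That list summed to 758 to 933 CPM in control and 622 to 923 in knockout. Of 10 lymphocyte markers 0 and of 10 epithelial and endothelial markers 1 had enough counts to be tested. What these transcripts contribute to the results was not tested, beyond leaving each library out.

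Of the 10 enzymes, Agps alone passed the test, and it was lower in knockout. All 10 had enough counts to be tested, giving 0 higher and 1 lower. Among all tested genes edgeR's quasi-likelihood test called 11.8% higher and 13.5% lower (25.3% in all) at an adjusted p of 0.05. The unadjusted p was under 0.05 for 3 of the 10, and for 40.9% of all tested genes. The median log2 difference, knockout minus control, was -0.10 over the 10 genes and 0.013 over all 11453 tested. In 6 of the 10 the groups did not overlap, with knockout above in 4 and below in 2, where 43.0% of all tested genes did not overlap (21.1% above and 21.8% below). These are bulk libraries, in which fewer cells of a kind and less RNA per cell cannot be told apart.

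**Figure D1:**
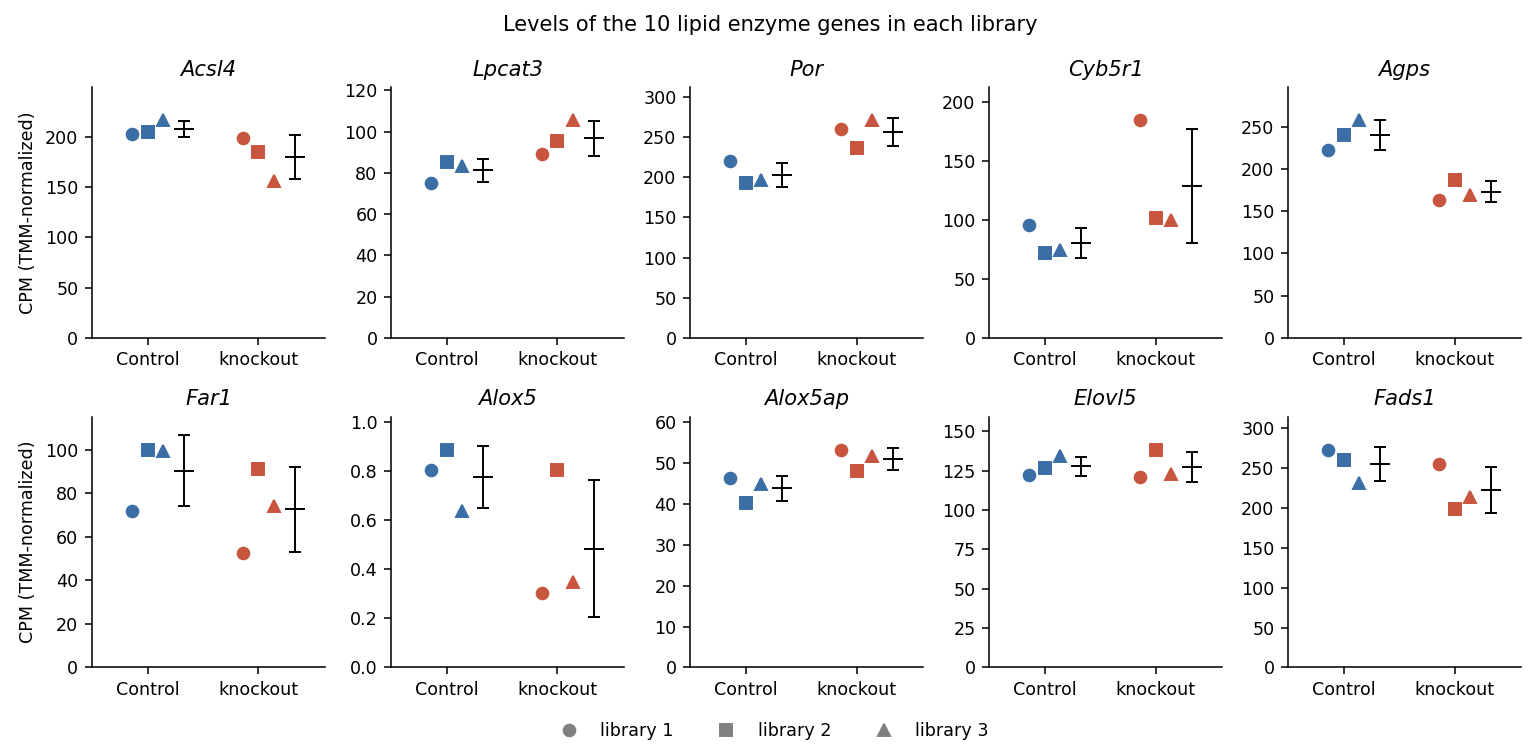
Level of each of the 10 genes in every library, in TMM-normalized CPM, each panel from 0. Points are libraries, with shapes for replicate numbers, and the black mark and bar are the mean and SD of 3. Agps lies lower in all 3 knockout libraries (163 to 187 CPM) than in any control (222 to 258 CPM), and Cyb5r1 is highest in knockout library 1.

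Levels per exon length gave an order of the genes within each group. Exon length here is the union of all annotated exons of a gene, which need not be the length of its expressed transcript. In control Fads1 (52.9 ± 4.396 CPM per kb, SD, n = 3) and Por (50.6 ± 3.65) were the highest, and their libraries overlapped. Acsl4 (38.6 ± 1.43) and Elovl5 (36.3 ± 1.66) followed and overlapped each other, then came Alox5ap (30.8 ± 2.23). Agps (25.5 ± 1.89) and Lpcat3 (24.9 ± 1.69) overlapped as well. Cyb5r1 (18.1 ± 2.899), Far1 (11.2 ± 2.02) and Alox5 (0.189 ± 0.0309) stood below, each apart from its neighbour. In knockout Por was the highest at 63.7 ± 4.39 CPM per kb, clear of Fads1 (46.1 ± 6.06). From Elovl5 (36.1 ± 2.73) through Alox5ap (35.9 ± 1.87), Acsl4 (33.3 ± 4.03) and Lpcat3 (29.6 ± 2.55) to Cyb5r1 (29.01 ± 10.9) each overlapped the next. Agps (18.4 ± 1.31 CPM per kb) ranked below Cyb5r1 there, without overlap, and above it in control. Far1 (9.01 ± 2.41) and Alox5 (0.118 ± 0.0678) were again the lowest. The lipoxygenase was the scarcest of the 10 transcripts in both groups.

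**Figure D2:**
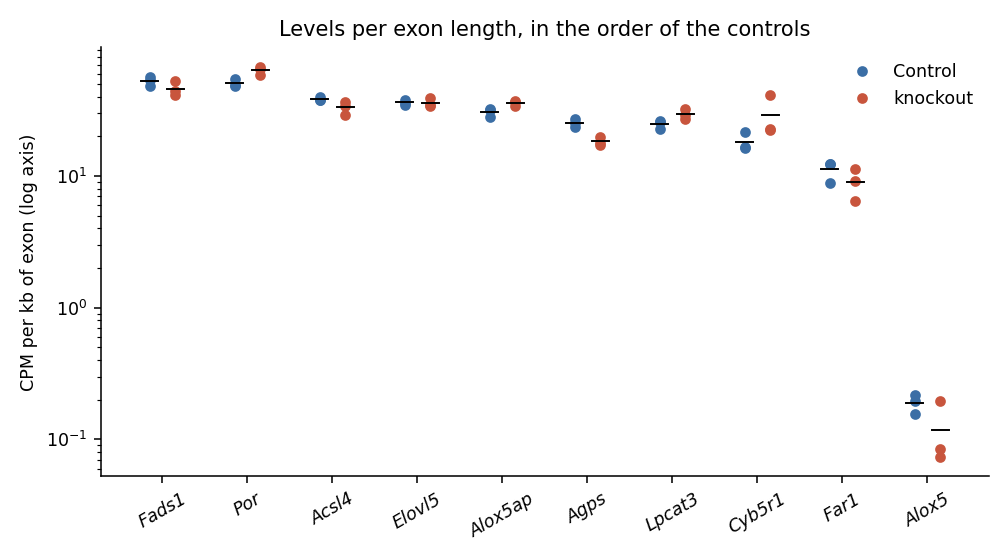
CPM per kb of exon (log axis) of the 10 genes, ordered by their control mean. Points are libraries and short black lines are means of 3. Alox5 lies far below the rest, at a mean of 0.189 in control and 0.118 in knockout, and Far1, the next lowest, is at 11.2 and 9.01.

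The ether lipid branch held the only call. AGPS exchanges the acyl chain of acyl-dihydroxyacetone phosphate for a fatty alcohol, which forms the ether bond. Agps (ENSMUSG00000042410.16, chromosome 2, 75832177 to 75931350, plus strand, mm10) was at 222, 240.0 and 258 CPM in the controls and 163, 187 and 169 CPM in knockout. All 3 knockout libraries were below the lowest control. Means were 240.0 ± 17.8 CPM in control and 173 ± 12.3 in knockout (SD over 3 libraries each), a log2 difference of -0.47 (SE 0.13, 95% interval -0.75 to -0.19, adjusted p = 0.0241 by edgeR), or -27.9%. Leaving out 1 library ended the call for control library 2 (-0.47, adjusted p = 0.106 by edgeR), control library 3 (-0.41, adjusted p = 0.0899 by edgeR), knockout library 2 (-0.53, adjusted p = 0.0514 by edgeR) and knockout library 3 (-0.45, adjusted p = 0.0943 by edgeR), with the direction kept each time.

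Differences in these libraries moved with exon length. Tested genes in the shortest decile by exon length had a median log2 difference of 0.41, those in the longest decile of -0.44. Agps, with 9.42 kb of exon, lay in the ninth decile, where the median was -0.25 and 25.6% of genes were called lower and 3.86% higher. Offsets that remove, library by library, the trend on exon length and GC put Agps at -0.17 (adjusted p = 0.287 by edgeR), not called. Under those offsets 9.17% of all tested genes were called lower and 15.5% higher (24.6% in all), and of the 10 enzymes 0 were lower and 2 higher (Por and Cyb5r1). The offsets also moved the median log2 difference over all tested genes, from 0.013 to 0.093.

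**Figure D3:**
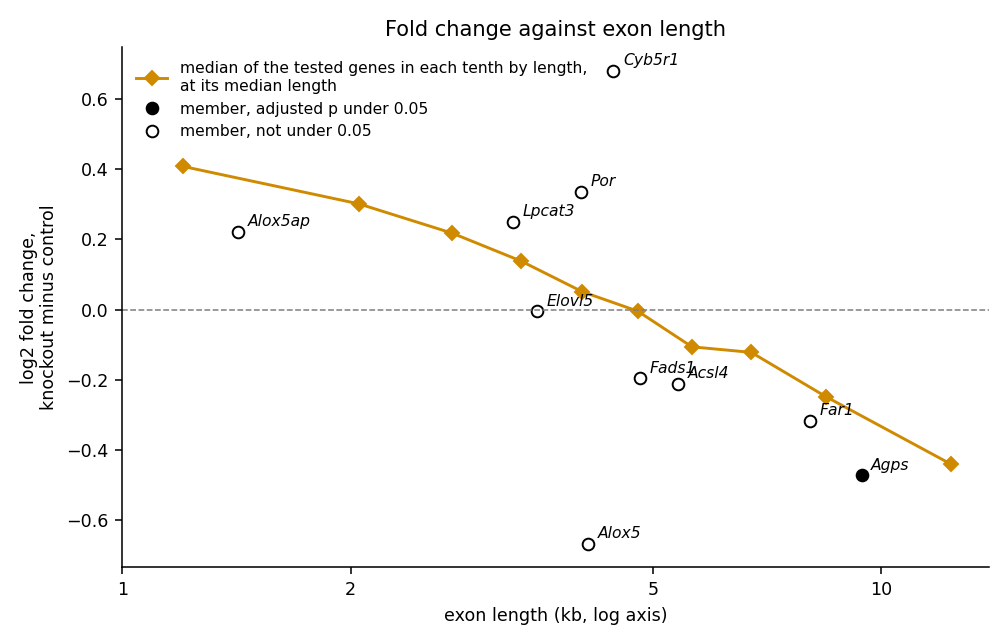
Log2 difference, knockout minus control, against exon length in kb (log axis). Diamonds are medians of all tested genes in deciles by length, circles are the 10 genes, filled where the adjusted p is under 0.05. The diamonds go from 0.41 to -0.44, and Agps (-0.47) and Far1 (-0.32) lie at the long end, below the median of their decile (-0.25).

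FAR1 reduces acyl-CoA to the fatty alcohol that AGPS uses. Far1 (chromosome 7, 113513834 to 113571511, plus strand) was at 71.7, 100.1 and 99.5 CPM in the controls and 52.5, 91.3 and 74.1 CPM in knockout. The groups overlapped, and library 1 was the lowest of either group. For Far1 the log2 difference was -0.32 (SE 0.21, 95% interval -0.79 to 0.15, adjusted p = 0.28 by edgeR), and with the offsets it was -0.042. It was -0.14 without knockout library 1 and -0.52 without knockout library 2, not called either way. An antisense gene within Far1, Far1os, had at most 20 counts.

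Gnpat, which makes the acyl-dihydroxyacetone phosphate that AGPS takes, was at 159 ± 13.1 CPM in control and 163 ± 5.38 in knockout, a log2 difference of 0.042 (SE 0.12, 95% interval -0.23 to 0.31, adjusted p = 0.818 by edgeR), and its sign turned with scaling by total counts alone (-0.11). The ratio of Agps to Gnpat counts, which does not depend on scaling, was 1.51, 1.39 and 1.64 in control and 0.994, 1.18 and 1.004 in knockout. The groups did not overlap (two-sided exact permutation test p = 0.1, the smallest that 3 against 3 libraries allow). The genes differ in exon length (9.42 and 3.59 kb). The ratio of Agps to Far1, genes of the same length decile, was 3.100, 2.398 and 2.59 in control and 3.11, 2.05 and 2.28 in knockout. There the groups overlapped (two-sided exact permutation test p = 0.6). Far1 had a negative estimate of its own (log2 difference -0.32, SE 0.21, not called), which enters this ratio. What exon length contributes to either ratio was not tested. In all 4 ratios were computed, picked after values were seen.

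Of 12 tested genes of ether lipid synthesis and turnover, Dhrs7b was higher, Agps was lower and 10 were not called (median 0.05). Dhrs7b, the reductase that follows AGPS in the pathway, was at 33.2 ± 2.52 CPM in control and 50.8 ± 4.296 in knockout (log2 difference 0.62, SE 0.13, adjusted p = 0.0127 by edgeR). Its call was lost without control library 2 (0.55, adjusted p = 0.082 by edgeR) or knockout library 2 (0.56, adjusted p = 0.0553 by edgeR). Far2, the second fatty acyl-CoA reductase, was scarce at 2.09 ± 0.136 CPM in control and 2.84 ± 0.136 in knockout (0.43, adjusted p = 0.267 by edgeR). Agmo, which cleaves ether lipids, had 0 counts in every library, which allows up to 0.268 CPM at the lowest depth and 0.1199 CPM at the highest, for counting error only.

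Peroxisome biogenesis genes are set beside these because AGPS reaches the peroxisome by the receptor PEX7. Of 15 such genes, all tested, 3 were higher, 0 lower and 12 not called (median 0.33). Pex7 was at 22.8 ± 2.72 CPM in control and 34.4 ± 3.97 in knockout (log2 difference 0.59, SE 0.15, adjusted p = 0.0205 by edgeR), and it has 12.1 kb of exon. The call was lost without control library 2, knockout library 2 or knockout library 3 (adjusted p = 0.0546 to 0.0922 by edgeR). With the offsets its difference was 1.06 (adjusted p = 0.00307 by edgeR). Pex5, the import receptor for the more common peroxisomal signal, went from 54.9 ± 4.53 to 89.2 ± 2.23 CPM (0.70, SE 0.13, adjusted p = 0.00612 by edgeR) and was called with any single library left out. Pex2, a ubiquitin ligase subunit of the import machinery, rose from 17.5 ± 1.94 to 26.1 ± 4.55 CPM (0.57, adjusted p = 0.0337 by edgeR). That call was lost with the offsets (0.39, adjusted p = 0.0692 by edgeR), and among fits with 1 library left out it held only without knockout library 1. The count ratio of Agps to Pex7 was 11.1, 10.5 and 10.1 in control and 5.18, 4.797 and 5.14 in knockout, without overlap (two-sided exact permutation test p = 0.1, the smallest possible). Every knockout library was below every control for Agps and above every control for Pex7. The ratio therefore had to separate, and it restates the calls of the single genes.

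Fatty acid activation by ACSL4 and reacylation by LPCAT3 gave no call. Acsl4 (chromosome X, 142317993 to 142390535, minus strand) was at 203, 205 and 217 CPM in the controls and 199, 185 and 156 CPM in knockout. All 3 knockout libraries were below the controls, knockout library 1 only narrowly. Its log2 difference was -0.21 (SE 0.13, 95% interval -0.51 to 0.083, adjusted p = 0.255 by edgeR), and it lay between -0.36 and -0.097 over the 16 alternatives tried, called in 0 of them.

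Acsl4 was set beside the remaining acyl-CoA synthetases, which differ in the chains they prefer and their site in the cell. Of 5 tested genes of the family 0 were called (median -0.13). Acsl5, named after its values were seen, was at 266 ± 9.83 CPM in control and 341 ± 46.3 in knockout (0.36, adjusted p = 0.0798 by edgeR) and passed with the offsets (0.44, adjusted p = 0.0361 by edgeR). Acsl3 was at 72.2 ± 10.9 CPM in control and 80.9 ± 9.11 in knockout (0.16, adjusted p = 0.452 by edgeR). As a share of the summed CPM per kb of these 5 genes, Acsl4 took 31.7, 32.3 and 32.1% in control and 30.2, 24.97 and 21.6% in knockout. Acsl5 took 45.1 to 45.7% in control and 48.6 to 57.1% in knockout. Neither share overlapped between groups, and no test was applied to them. Every knockout library was already below every control for Acsl4 CPM and above every control for Acsl5 CPM. As parts of the same sum, the shares largely restate the values of these genes and are not separate results. The count ratio of Acsl4 to Acsl3 was 3.27, 2.896 and 2.59 in control and 2.83, 2.14 and 1.82 in knockout, with overlap (two-sided exact permutation test p = 0.2).

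Lpcat3 (chromosome 6, 124663027 to 124704418, plus strand) was at 74.99, 85.4 and 83.4 CPM in the controls and 89.1, 95.3 and 106 CPM in knockout. Every knockout library was above every control. On the log2 scale the difference was 0.25 (SE 0.13, 95% interval -0.036 to 0.54, adjusted p = 0.17 by edgeR), and 0.094 with scaling by total counts alone. The end of the gene, from 124704085 to 124704418, overlaps Emg1 on the opposite strand (1632 to 6262 counts). Of the 50-base words of Lpcat3 transcripts 8.39% also occur in Emg1, so the 2 genes' reads cannot be fully separated.

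Among 13 tested lysophospholipid acyltransferases, which rebuild phospholipids by adding a chain to a lysophospholipid, 3 were higher, 3 lower and 7 not called (median 0.057). Agpat4, Agpat1 and Agpat5, of the family that acylates lysophosphatidic acid, were the 3 higher. Agpat4 went from 43.3 ± 2.39 to 78.9 ± 9.92 CPM (log2 difference 0.87, SE 0.14, adjusted p = 0.00398 by edgeR) and was called with any single library left out. Agpat1 rose from 89.4 ± 2.44 to 129 ± 18.7 CPM (0.53, adjusted p = 0.0208 by edgeR) and Agpat5 from 106 ± 9.25 to 167 ± 43.4 CPM (0.67, adjusted p = 0.0297 by edgeR). Agpat1 was not called without control library 2, control library 3 or knockout library 3 (adjusted p = 0.0556 to 0.104 by edgeR), nor Agpat5 without control library 2, control library 3, knockout library 2 or knockout library 3 (adjusted p = 0.081 to 0.119 by edgeR). Agpat2, of the same family, fell from 20.3 ± 6.44 to 10.9 ± 1.31 CPM (-0.88, adjusted p = 0.0214 by edgeR). Mboat1, which acylates lysophosphatidylethanolamine and lysophosphatidylserine, fell from 26.5 ± 7.504 to 15.6 ± 2.44 CPM (-0.76, adjusted p = 0.029 by edgeR). Control library 1 was the highest for both. Agpat2 was not called without knockout library 2 or knockout library 3 (adjusted p = 0.0582 to 0.0863 by edgeR), nor Mboat1 without control library 1, knockout library 2 or knockout library 3 (adjusted p = 0.0583 to 0.0844 by edgeR). Mboat7, which adds arachidonate to lysophosphatidylinositol and was named after its value was seen, fell from 41.4 ± 4.74 to 29.95 ± 3.37 CPM (-0.47, adjusted p = 0.0433 by edgeR), a call lost with the offsets (-0.14, adjusted p = 0.495 by edgeR) and without control library 2, control library 3, knockout library 2 or knockout library 3 (adjusted p = 0.0645 to 0.188 by edgeR). Lpcat1 was at 57.4 ± 1.79 CPM in control and 58.6 ± 3.85 in knockout (0.031, adjusted p = 0.867 by edgeR).

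Electron carriers of the endoplasmic reticulum gave no call by the main test. POR passes electrons from NADPH to cytochromes P450, and CYB5R1 belongs to the cytochrome b5 reductases. Por (chromosome 5, 135670033 to 135735326, plus strand) was at 220.1, 193 and 197 CPM in the controls and 260.1, 237 and 272 CPM in knockout. The groups did not overlap, with knockout above. The Por difference was, on the log2 scale, 0.33 (SE 0.13, 95% interval 0.055 to 0.61, adjusted p = 0.0741 by edgeR), and 0.18 with scaling by total counts alone. DESeq2 called it (0.33, adjusted p = 0.0453), with 14.6% of all genes called higher by that tool, and so did the fit with offsets (0.39, adjusted p = 0.0264 by edgeR).

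Cyb5r1 (chromosome 1, 134405559 to 134411740, plus strand) was at 95.2, 71.9 and 74.2 CPM in the controls and 185, 101 and 100.2 CPM in knockout. Knockout library 1 was far above the rest, and knockout libraries 2 and 3 were just above the highest control. Its log2 difference was 0.68 (SE 0.24, 95% interval 0.15 to 1.21, adjusted p = 0.06 by edgeR), and without knockout library 1 it was 0.32 (adjusted p = 0.0924 by edgeR). It was called without a filter on low counts (0.69, adjusted p = 0.00555 by edgeR), where 8.69% of all genes were higher. DESeq2 (0.68, adjusted p = 0.0231) and the fit with offsets (0.73, adjusted p = 0.0402 by edgeR) called it too. Of 7 tested electron carriers 0 were called (median 0.22). Cyb5r3, a relative of Cyb5r1, was at 106 ± 13.5 CPM in control and 119 ± 16.7 in knockout (0.17, adjusted p = 0.427 by edgeR). In summed CPM per kb of these 7 genes, Cyb5r1 took 8.07 to 9.59% in control, 16.4% in knockout library 1, and 9.06 and 8.704% in knockout libraries 2 and 3.

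**Figure D4:**
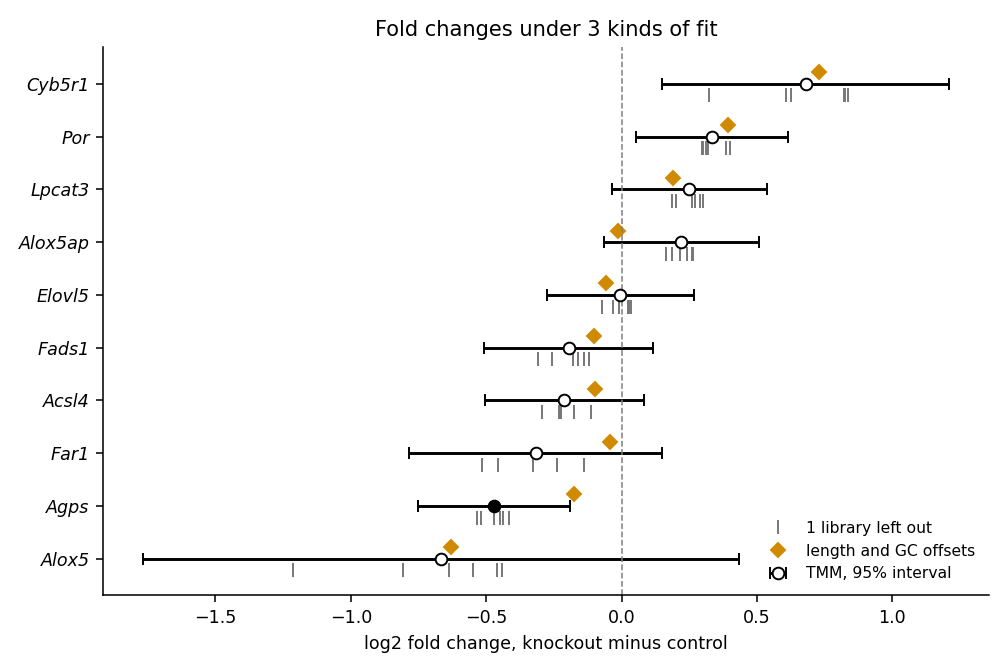
Log2 difference of the 10 genes, knockout minus control. Circles with bars are the edgeR estimate with TMM scaling and its 95% interval (filled where the adjusted p is under 0.05), ticks are fits with 1 library left out and diamonds the fit with length and GC offsets. Agps moves from -0.47 to -0.17 with the offsets, and the lowest tick of Cyb5r1 (0.32) is the fit without knockout library 1.

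Lipoxygenase transcripts were scarce. Alox5 (chromosome 6, 116410077 to 116461178, minus strand) had 9, 15 and 16 counts in control and 4, 12 and 7 in knockout, or 0.778 ± 0.127 and 0.485 ± 0.279 CPM. Knockout library 2 lay within the control range, and knockout libraries 1 and 3 below it. Its log2 difference was -0.67 (SE 0.49, 95% interval -1.77 to 0.43, adjusted p = 0.334 by edgeR). It was -1.21 without knockout library 2 and -0.44 without knockout library 3, not called either way.

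Alox5ap, encoding the 5-lipoxygenase activating protein (chromosome 5, 149264767 to 149288153, plus strand), was at 46.3, 40.2 and 44.8 CPM in the controls and 53.2, 48.02 and 51.6 CPM in knockout. All knockout libraries were above all controls. Alox5ap differed by a log2 value of 0.22 (SE 0.13, 95% interval -0.065 to 0.51, adjusted p = 0.223 by edgeR). Its exons (1.42 kb) are in the shortest decile, whose median was 0.41, and with the offsets it was at -0.012 (0.07 with scaling by total counts alone). An antisense gene, Gm19719, holds 6.803% of its 50-base words and had 5 to 23 counts.

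Of 8 tested lipoxygenase and leukotriene genes Cysltr1 alone was called (0 higher, 1 lower, median 0.21), and 9 of the list of 17 were too low to be tested. Cysltr1, a receptor for cysteinyl leukotrienes, had 12, 16 and 40 counts in control and 0 in each knockout library. Against a floor of 3 counts over the knockout group it was at least 19.4-fold lower (1.21 ± 0.345 CPM in control, adjusted p = 0.00299 by edgeR), and it was called with any single library left out. Alox15, the 12/15-lipoxygenase, was at 2.91 ± 0.936 CPM in control and 3.75 ± 2.53 in knockout (0.37, adjusted p = 0.638 by edgeR), with 11 counts in knockout library 1 against 78 and 104 in knockout libraries 2 and 3. Without knockout library 1 it was higher (0.82, adjusted p = 0.0484 by edgeR), in a fit that called 2346 of 11747 genes higher. Alox15 was at 0.070 without knockout library 2 and 0.069 without knockout library 3. Of 16 alternatives, 1 called it. Lta4h, which makes leukotriene B4, was at 83.7 ± 2.18 CPM in control and 96.3 ± 10.3 in knockout (0.20, adjusted p = 0.262 by edgeR).

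Cyclooxygenase and prostanoid genes, which draw on the same arachidonate, had 1 higher, 2 lower and 5 not called of 8 (median -0.20). Ptgs1, the constitutive cyclooxygenase, fell from 87.04 ± 5.53 to 52.97 ± 17.3 CPM (log2 difference -0.71, SE 0.22, adjusted p = 0.0412 by edgeR), lowest in knockout library 1. That call was lost without control library 1, control library 2, control library 3 or knockout library 2 (adjusted p = 0.0793 to 0.105 by edgeR). Thromboxane synthase Tbxas1 fell from 2.49 ± 1.02 to 0.459 ± 0.264 CPM (-2.32, SE 0.49, adjusted p = 0.0109 by edgeR), a call lost without knockout library 2 (adjusted p = 0.0509 by edgeR). Ptges3, a prostaglandin E synthase and HSP90 co-chaperone, rose from 199 ± 19.96 to 301 ± 74.5 CPM (0.59, adjusted p = 0.0415 by edgeR) and was called only without knockout library 1 among fits with 1 library left out, and not with the offsets (0.39, adjusted p = 0.0739 by edgeR). Of 6 tested phospholipases A2, which release fatty acids from phospholipids, the secreted enzyme Pla2g12a was higher (81.01 ± 10.7 to 129 ± 16.97 CPM, 0.67, adjusted p = 0.0133 by edgeR), 0 were lower and 5 were not called (median 0.11). The Pla2g12a call was lost without control library 2 or knockout library 2 (adjusted p = 0.0564 to 0.078 by edgeR).

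Elongation and desaturation of polyunsaturated chains gave no call for either member. Elovl5 (chromosome 9, 77917364 to 77984519, plus strand) was at 123, 127 and 134 CPM in the controls and 121, 138 and 123 CPM in knockout. The groups overlapped, with the highest and the lowest library both in knockout. Its log2 difference was -0.0053 (SE 0.12, 95% interval -0.28 to 0.27, adjusted p = 0.976 by edgeR). Fads1, the delta-5 desaturase of the route to arachidonate (chromosome 19, 10182888 to 10196877, plus strand), was at 272, 259.6 and 231 CPM in the controls and 255, 198 and 213 CPM in knockout. Knockout library 1 lay within the control range and the remaining knockout libraries below it. The Fads1 log2 difference came to -0.20 (SE 0.14, 95% interval -0.51 to 0.12, adjusted p = 0.317 by edgeR). It was -0.31 without knockout library 1, -0.12 without knockout library 2 and -0.10 with the offsets, not called in any of these.

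Fads2, the desaturase that acts before Fads1 on the same route, was nearly absent: 1, 0 and 2 counts in control and 0, 1 and 2 in knockout, where Fads1 had 2951 to 5783. Elovl2, another elongase of polyunsaturated chains, had 0 counts in every library. Of 14 tested genes of elongation and desaturation 1 was higher, 1 lower and 12 not called (median 0.13), and 7 of the 21 listed were too low to be tested. Elovl7, a fatty acid elongase, fell from 4.99 ± 0.182 to 1.13 ± 0.591 CPM (log2 difference -2.16, SE 0.37, adjusted p = 0.0049 by edgeR) and was called with any single library left out. Tecr, the reductase of the last step of each elongation round, rose from 137 ± 6.21 to 180.1 ± 16.2 CPM (0.39, adjusted p = 0.0445 by edgeR). Among fits with 1 library left out Tecr was called only without knockout library 1, and the offsets ended its call (0.28, adjusted p = 0.0874 by edgeR). Of the 10 alternatives that kept every library, 4 called Tecr. Elovl6, which elongates saturated chains, was at 146 ± 16.1 CPM in control and 130.3 ± 11.6 in knockout (-0.17, adjusted p = 0.385 by edgeR), turning sign with the offsets (0.021).

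**Figure D5:**
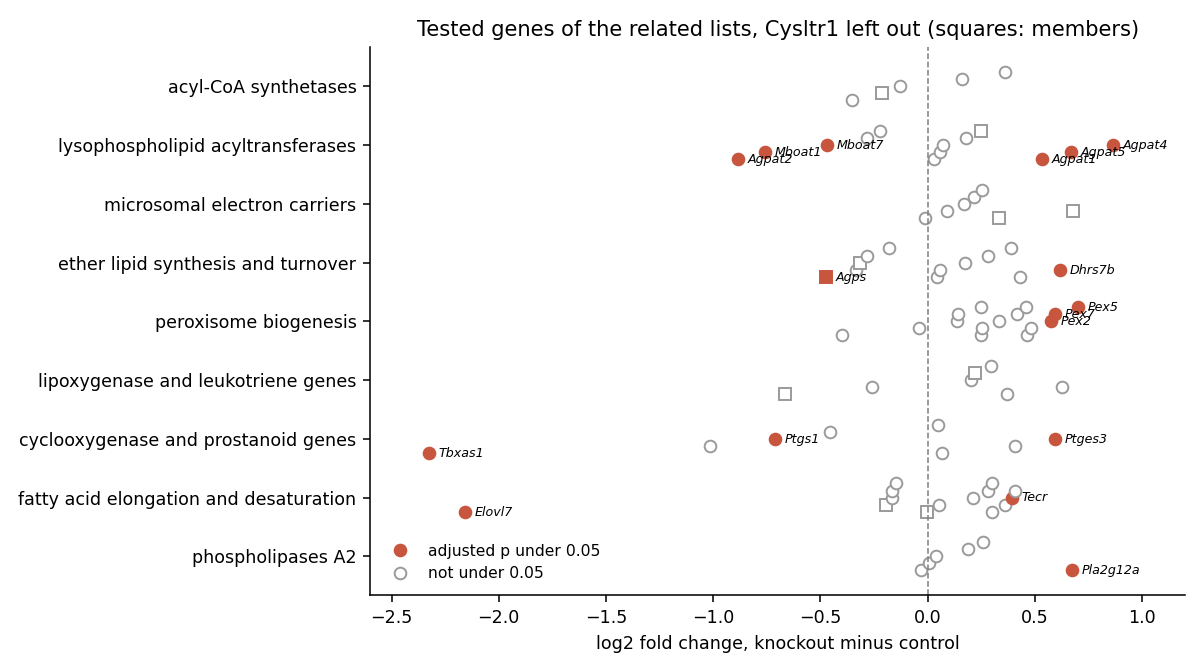
Log2 difference, knockout minus control, of the tested genes of 9 related lists, with members as squares and filled symbols where the edgeR adjusted p is under 0.05; vertical scatter within a row has no meaning. Cysltr1, at 0 counts in knockout, is left out. Filled symbols lie on both sides among the acyltransferases, and in the ether lipid row Agps (-0.47) and Dhrs7b (0.62) are the filled ones.

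Over all 9 related lists with the 10 members left out, 78 of 105 genes were tested, of which 10 were higher, 7 lower and 61 not called (median 0.17). Among all 11453 tested genes 11.8% were higher and 13.5% lower (median 0.013). The lists were chosen with earlier results of these data known, so their counts describe the genes and are not independent support for any direction.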

How the data were processed

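The sequenced material was total RNA, and the library kit was KAPA Hyper Prep, per the labels' protocols. The submitters' processing notes name Trimmomatic 0.39, STAR 2.7.5c, StringTie 2.1.7 and the build mm10 without giving their roles. The authors deposited raw read counts per gene, unscaled, 1 column for each of the 6 libraries, matched to samples by name. Not given in the sources used here: the counting step, annotation and strand setting. Reads of overlapping genes on opposite strands can therefore not be told apart.

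Genes passing edgeR's filterByExpr (11453 of the 18546 with any count) were tested, knockout against control, with the quasi-likelihood F test of edgeR 4.0.16 (R 4.3.3, limma 3.58.1), TMM factors and Benjamini-Hochberg adjustment over all tested genes, at a threshold of 0.05. CPM values are TMM-normalized. No pair of libraries within a group was a duplicate (chi-square per degree of freedom 16.0 to 54.2).

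Exon length, the union of all annotated exons of a gene, and GC content came from GENCODE M21 on the same build. Of tested genes 99.5% had both. Offsets for length and GC were loess trends per library (span 0.3). Promoters came from RefSeq (8 of 10 members matched). Alternatives were 3 other scalings, 2 other filters, DESeq2 1.42.0, limma-voom, a block on replicate number, the offsets with and without that block, and leaving out each library. The steps were tested on simulated counts that carried no trend on length or GC, so that test did not check how the offsets remove one. The members, lists and alternatives were chosen with earlier results of these data known. Named genes were all 10 members, Cd274, up to 5 called genes with non-overlapping groups per list, and 9 fixed relatives. Mboat7, Acsl5, Scd1 and Scd2 were added after their values were seen.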

Additional observations from a re-analysis of the deposited data

How the results depend on the processing

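The count of members called lower was 1 and went to 0 with the length and GC offsets, alone or with the replicate block, and ranged from 0 to 1 with single libraries left out. The count called higher was 0 and became 1 without a filter on low counts, 1 with the replicate block, 2 by DESeq2, 2 with the offsets, and 2 with the offsets and the block. In that order, the fits called higher 8.69%, 1480 of 11453, 14.6%, 15.5% and 1791 of 11453 of all tested genes, against 11.8% in the main fit. The count of members called higher was 0 with any single library left out. Calls across the table, 2896, ranged from 638 (without control library 2) to 4962 (without knockout library 1) over those fits, with 1783 without control library 3, 1044 without knockout library 2 and 1222 without knockout library 3. Calls in the related lists, 17, ranged from 5 to 30. Scaling by total counts alone put the median over all genes at -0.14, with 23.2% of calls higher, against 46.7% with TMM and 62.8% with the offsets. That median was 0.013 with TMM and 0.093 with the offsets. Of the estimates for single named genes under an alternative, 530 kept direction and side of the threshold, 66 lost a call, 13 gained 1 and 14 changed sign. The sign changes were Alox5ap (-0.012 with the offsets, -0.015 with the block added), Elovl5 (0.0065 without a filter, -0.071 to 0.034 with single libraries left out), Elovl6 (0.021 and 0.024 with the offsets, without and with the block), Gnpat (-0.11 by total counts, -0.0074 to 0.11 with single libraries left out), Lpcat1 (-0.12 and -0.019 to 0.063) and Scd1 (-0.097 and -0.14 to 0.14). The cause was not tested.

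The replicate block gave 3212 calls, with Cyb5r1 the member called higher (0.63, adjusted p = 0.0128 by edgeR). Same-numbered libraries correlated at 0.15, -0.064 and 0.36 in their deviations from the group means. Control libraries 1 and 3 correlated best with the knockout library of the same number, and control library 2 with knockout library 1 (0.14). As the numbers did not match throughout, they were not taken to pair the libraries. Among the members Alox5 had the fewest counts, 4 to 16 a library, and its SE was 0.49 on the log2 scale.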

Other observations

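Stearoyl-CoA desaturases make monounsaturated chains, which also fill places in phospholipids. Scd1 and Scd2 were named after their values were seen. Scd2 stood at 385 ± 10.4 CPM per kb in control, above Fads1 (52.9 ± 4.396). Its level was 2101 ± 56.7 CPM in control and 1899 ± 227 in knockout (log2 difference -0.15, SE 0.13, adjusted p = 0.442 by edgeR). Scd1 was at 338 ± 24.00 CPM in control and 351 ± 72.7 in knockout (0.051, adjusted p = 0.835 by edgeR), with 435 CPM in knockout library 1 against 310.3 and 307 in knockout libraries 2 and 3. Its sign turned without knockout library 1 (-0.14) and with total counts alone (-0.097).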
